A study of Mus musculus with 6 samples.

Results

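The genes described here are 10 transcripts that heart muscle is known to raise under stretch or injury: Nppb, Acta1, Ankrd1, Xirp1, Xirp2, Csrp3, Fhl1, Fhl2, Rcan1 and Uck2. They were measured in RNA from heart tissue of male mice aged 5 to 6 months after a 6 hour fast, on Affymetrix mouse arrays with 1 array per sample. The labels give 3 wild-type and 3 Cav1KO samples, called wild-type and knockout hearts here, numbered in accession order within the knockouts. The labels state neither the strain, nor the deleted part of Cav1, nor whether the samples are separate animals. The p-values therefore measure the spread between these samples, which may be technical. Members were every probe set (a group of short probes read as 1 value) that the platform annotation pairs with exactly 1 gene symbol, that symbol being on the list. This gave 17 probe sets for 9 of the 10 genes, out of 18194 genes so named on the array. Xirp2 was paired with none and was not analysed here.

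Stretched or overloaded cardiomyocytes are known to switch on a small stress programme. It includes the secreted hormone BNP (from Nppb), the skeletal isoform of sarcomeric actin (Acta1), and proteins that sit at the Z-disc or on titin and take part in sensing load. The matrix genes belong mainly to fibroblasts and other interstitial cells, and were read beside the stress genes in the same hearts. The cell type behind either signal was not measured. In whole tissue, a change in the number of cells of a type and a change of RNA per cell cannot be told apart.

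The proximal promoters of Acta1 and Ankrd1 are shown because these genes had the largest differences among the muscle structural members and because such promoters are known targets of load-linked factors. The sequences are the 250 bases before the start site, from RefSeq on GRCm38.p6, Acta1 at chr8:123894776-123895025 and Ankrd1 at chr19:36119845-36120094, both on the minus strand and written 5′ to 3′. Capitals mark the matches to the 3 motifs searched on both strands. They are the CArG box, known to be bound by serum response factor, the TEAD motif spelled CATTCC and searched in either orientation, and TTATCT, the motif of the zinc-finger Gata factors of heart muscle.
Acta1: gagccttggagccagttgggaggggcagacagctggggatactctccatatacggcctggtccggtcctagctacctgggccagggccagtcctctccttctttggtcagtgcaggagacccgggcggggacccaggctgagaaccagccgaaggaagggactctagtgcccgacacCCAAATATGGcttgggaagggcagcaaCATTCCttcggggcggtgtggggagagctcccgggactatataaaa
Ankrd1: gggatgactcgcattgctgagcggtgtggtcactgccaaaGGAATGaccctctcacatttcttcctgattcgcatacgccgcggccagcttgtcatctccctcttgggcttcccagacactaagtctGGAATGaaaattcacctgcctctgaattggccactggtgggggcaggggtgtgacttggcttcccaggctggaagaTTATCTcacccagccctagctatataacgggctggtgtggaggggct

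In Acta1 the CArG box began 73 bases and the TEAD motif 46 bases before the start site. Ankrd1 held the TEAD motif in the other orientation at 210 and 123 bases and the Gata motif at 47 bases. Across 9 member genes with a window in the table (Xirp2 included, Xirp1 not), 3 genes held a CArG box (Acta1, Fhl1 and Fhl2), 3 held the TEAD motif (Acta1, Ankrd1 and Nppb) and 3 held the Gata motif (Ankrd1, Nppb and Fhl2). By window, 4 of the 13 member windows held a CArG box, 3 the TEAD motif and 3 the Gata motif. Of all 32851 promoter windows of this length, 1.47% held a CArG box, 12.6% held the TEAD motif and 9.99% held the Gata motif. None of the matches overlapped another. A match is a string of letters and shows no binding, and several genes had more than 1 window.

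None of the stress genes passed the test in knockout hearts. Of 14 member probe sets that passed the filter on low values, 0 had an adjusted p under 0.05 (limma, Benjamini-Hochberg over 22519 tested probe sets), while 6 had an unadjusted p under 0.05, all with higher means in knockout. Across the array 3.17% of tested probe sets were called, 2.36% as higher, and 10.3% were higher at an unadjusted p under 0.05. The other 3 member probe sets, 1 of Fhl1 and 2 of Uck2, lay below the filter. With 9 genes at their brightest probe set, the median log2 difference was 0.092, against -0.014 over all 11486 tested genes. The matrix genes, described further on, had a median of 0.32 with 20 of 45 called.

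The labels were checked on Cav1 itself, whose intensity averaged 3958 ± 268 (SD, n = 3) across wild-type hearts and 108 ± 10.3 (SD, n = 3) across knockout hearts, a log2 difference of -5.02 (SE 0.067, limma adjusted p = 1.65e-09). Its place relative to the deletion is unknown here. Summed intensities per array ran from 11737000 to 12397000. The number of arrays, 3 per group, limits the precision of every comparison. Intensities below are as deposited, on a linear scale, and differences are knockout minus wild type on log2(intensity + 16) after quantile normalisation, which understates the change of low probe sets. Of all calls, 74.4% were higher in knockout, against 90.9% with the intensities as deposited and 93.5% with median centring, which moved the median of all tested probe sets from -0.0096 to 0.032 and 0.051.

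Nppb, which encodes the precursor of B-type natriuretic peptide, did not separate the groups. Its single probe set read 3285, 2896 and 4062 in wild-type hearts 1 to 3 and 3709, 3287 and 3144 in knockout hearts 1 to 3. The highest and the lowest reading were both wild type, so the knockout range lay inside the wild-type range. The log2 difference was -0.015 (SE 0.11, limma adjusted p = 0.954), with a 95% interval of -0.27 to 0.24, or 0.83-fold to 1.18-fold. Its sign was not stable: it was 0.015 with median centring and 0.11 without wild type replicate 3. Nppb was bright in every heart, at or above percentile 98.3 of all probe sets. Of all tested probe sets, 51.6% had a larger difference.

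Acta1, the skeletal alpha-actin that the stressed ventricle is known to re-express, had the largest mean difference of the members and the widest spread. The wild-type hearts read 3576, 3486 and 4488 and the knockout hearts 7617, 6464 and 4150. Knockout hearts 1 and 2 lay above every wild-type heart, while knockout heart 3 lay below wild-type heart 3. The log2 difference was 0.62 (SE 0.19, limma adjusted p = 0.126), with a 95% interval of 0.18 to 1.05, and 0.528% of tested probe sets had a larger one. Without knockout replicate 3 it was 0.87 with a limma adjusted p of 0.00813, and over all 15 alternatives the adjusted p ran from 0.00813 to 0.352. Acta1 is close in coding sequence to cardiac actin, Actc1, and how much of its signal comes from Actc1 was not tested; Actc1 itself had a log2 difference of 0.0092 (limma adjusted p = 0.831).

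**Figure D1:**
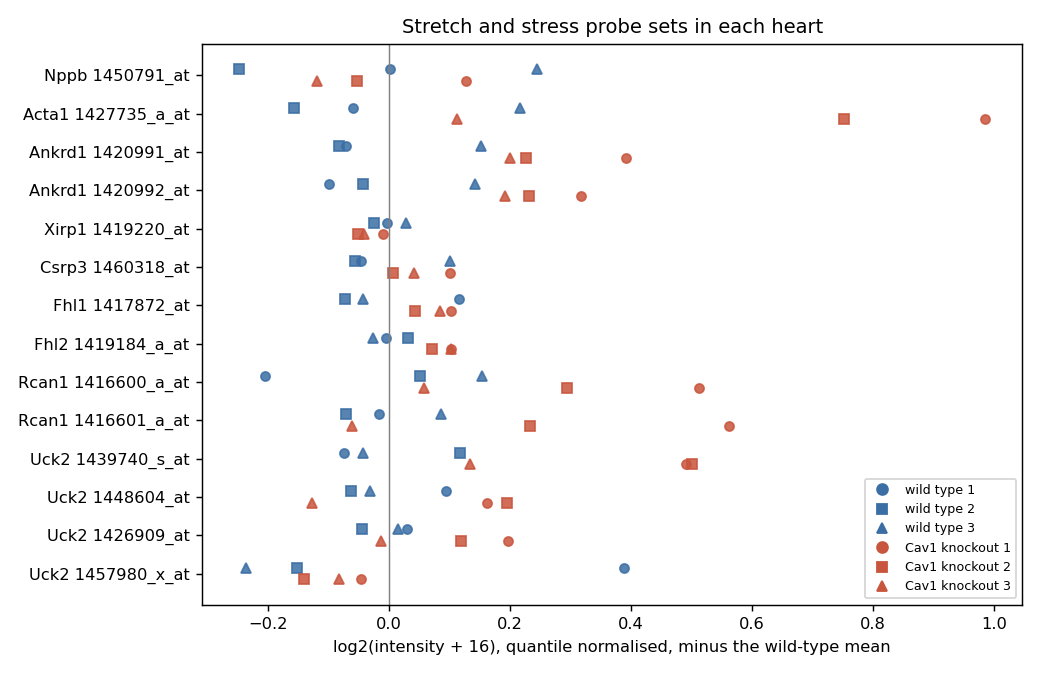
Each point is 1 heart, plotted as log2(intensity + 16) after quantile normalisation minus the wild-type mean of that probe set; rows are the 14 tested member probe sets, blue is wild type and red is knockout. Knockout hearts 1 and 2 stand to the right for Acta1, Rcan1 and the s_at probe set of Uck2 with knockout heart 3 close to the wild-type hearts. The knockout hearts lie within the wild-type range for Nppb, and knockout hearts 2 and 3 lie below it for Xirp1.

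Ankrd1, a cardiac ankyrin repeat protein that binds titin and shuttles to the nucleus, was higher in each knockout heart than in any wild-type heart, yet missed the threshold. Its brighter probe set read 8440, 8351 and 9799 in the wild-type hearts against 11271, 10186 and 10026 in the knockout hearts. The dimmer probe set read 6611, 6970 and 7912 against 8831, 8315 and 8185. Both showed wild-type heart 3 as the highest wild-type heart and knockout heart 1 as the highest of all. The log2 differences were 0.27 (SE 0.069, limma adjusted p = 0.0739, 95% interval 0.12 to 0.43) and 0.25 (SE 0.060, limma adjusted p = 0.0658, 95% interval 0.11 to 0.38). In the brighter probe set this is 1.21-fold. Both probe sets passed without wild type replicate 3, at 0.35 and 0.32 (limma adjusted p = 0.0335 and 0.019), and among the upper 25% of probe sets (limma adjusted p = 0.049 and 0.0422). Over all alternatives the adjusted p of the brighter probe set ran from 0.0335 to 0.238 and that of the other from 0.019 to 0.228. Both Ankrd1 probe sets, Fhl2 and Csrp3 lay at or above percentile 99 of the array in every heart, and a loss of range there, which would also narrow their differences and intervals, was not tested. At such ranks quantile normalisation can also give differing readings the same value. Fhl2 read 10101 and 10165 in knockout hearts 1 and 3 and stood at 13.3182 in both after it.

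The LIM-domain members, which link the sarcomere to signalling, showed small differences. Fhl2, a scaffold at the Z-disc and on titin, read 9444, 9727 and 9385 in the wild-type hearts against 10101, 10003 and 10165 in the knockout hearts. These groups did not overlap, and the log2 difference was 0.092 (SE 0.027, limma adjusted p = 0.107, 95% interval 0.032 to 0.15), which is 1.07-fold. Fhl1, a related scaffold that binds titin, read 2560, 2378 and 2410 against 2705, 2607 and 2654, groups that were separate as deposited. After quantile normalisation its groups overlapped, with a log2 difference of 0.077 (SE 0.052, limma adjusted p = 0.423). A second, dim Fhl1 probe set, between 21.7 and 26.5 in all hearts, lay below the filter. Csrp3, the muscle LIM protein, read 9637, 9644 and 10629 against 10629, 10013 and 10169, with wild-type heart 3 level with the highest knockout heart (log2 difference 0.050, SE 0.045, limma adjusted p = 0.548). The 95% intervals of Fhl1 and Csrp3 were -0.040 to 0.19 and -0.051 to 0.15, the upper ends being 1.14-fold and 1.11-fold.

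Xirp1, an actin-binding repeat protein of the intercalated disc, had the smallest range of normalised log2 values among the tested members, 0.080. It read 668, 724 and 734 in the wild-type hearts against 736, 713 and 710 in the knockout hearts. Its groups overlapped, with a log2 difference of -0.034 (SE 0.044, limma adjusted p = 0.684, 95% interval -0.13 to 0.065). The sign turned with the scaling, to 0.022 as deposited and 0.041 with median centring.

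Rcan1 encodes a regulator of the phosphatase calcineurin, and one of its transcripts is a known readout of calcineurin and NFAT activity. The brighter of its probe sets read 407, 542 and 570 in the wild-type hearts against 758, 652 and 542 in the knockout hearts. The other read 380, 405 and 442 against 644, 514 and 407. In both, knockout hearts 1 and 2 lay above the wild-type hearts and knockout heart 3 lay among them. The log2 differences were 0.29 (SE 0.12, limma adjusted p = 0.231, 95% interval 0.014 to 0.56) and 0.24 (SE 0.13, limma adjusted p = 0.332, 95% interval -0.054 to 0.54). Both probe sets carry the suffix a_at, which Affymetrix gives to probes shared by several transcripts of a gene, so its transcripts cannot be told apart here.

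Uck2, a uridine-cytidine kinase of the pyrimidine salvage pathway, had 6 probe sets that did not give 1 answer. The one with the suffix s_at, whose probes can match more than 1 gene, read 173, 220 and 189 in the wild-type hearts against 293, 298 and 221 in the knockout hearts. Its groups did not overlap, by a narrow margin at knockout heart 3 (log2 difference 0.38, SE 0.10, limma adjusted p = 0.0956, 95% interval 0.14 to 0.61). Without knockout replicate 3 it was 0.50, with a limma adjusted p of 0.0198; over all alternatives the adjusted p ran from 0.0198 to 0.306. A probe set of like brightness, with the plain suffix, read 199, 194 and 194 against 233, 241 and 185, so knockout heart 3 was the lowest of all (log2 difference 0.077, SE 0.092, limma adjusted p = 0.661). The next stood at 0.10 (limma adjusted p = 0.452) and an x_at probe set, the kind most open to cross-hybridisation, at -0.089 (limma adjusted p = 0.752), with wild-type heart 1 at 95.4 and all others between 58.4 and 69.4. In the last of these the sign turned without wild type replicate 1, to 0.11. The 2 probe sets below the filter read 30.1 to 49.1 and 17.3 to 21.8.

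**Figure D2:**
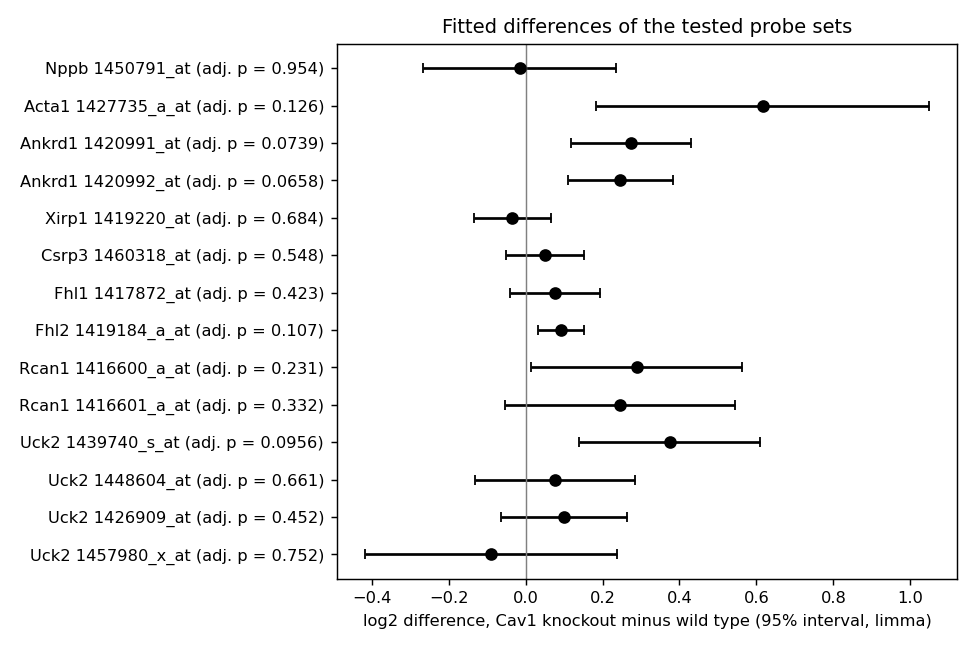
Points are the limma log2 differences, knockout minus wild type, of the 14 tested member probe sets, and bars are 95% intervals that are not corrected for the number of tests. The intervals of Acta1, both Ankrd1 probe sets, Fhl2, the brighter Rcan1 and the s_at probe set of Uck2 lie above 0, and the adjusted p beside each name runs from 0.0658 to 0.954.

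The hearts did not take the same place in every gene, but some places recurred. At the brightest probe set for each of the 9 genes, knockout heart 1 was the highest knockout heart in 7 after normalisation and shared that place with knockout heart 3 in Fhl2, where the deposited reading of heart 3 was higher. It was the highest of all hearts in 3 and shared that place in Fhl2 and Csrp3. Knockout heart 3 was the lowest knockout heart in 5, and wild-type heart 3 was the highest wild-type heart in 6. Wild-type and knockout values were fully separate in 4 of the 14 tested probe sets (both of Ankrd1, Fhl2 and 1 of Uck2), all higher in knockout. Of all tested probe sets, 26.3% were separate in either direction and 12.3% with knockout higher. Leaving out knockout replicate 3 gave 2 called probe sets (Acta1 and Uck2), leaving out wild type replicate 3 gave 2 (both of Ankrd1), and each of the other 4 left-out arrays gave 0.

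The 3 members with the widest range over the 6 hearts were Acta1, Rcan1 and Uck2. The profile nearest to each was sought among the 11486 tested genes, as the smallest Euclidean distance between log2 values centred on their mean over the 6 hearts. For Acta1 these were Mmp3 at 0.18, Hsp90aa1 at 0.30 and Myot, which encodes the Z-disc protein myotilin, at 0.32. For Rcan1 they were Rin3, Lox and Rhou at 0.17 each, and for Uck2 Bmp6 at 0.15, Tuba1a at 0.15 and Clock at 0.16. With 6 hearts, many genes can share a profile.

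The matrix genes were counted in the same fit. The list of collagens, proteoglycans, basement membrane and matricellular genes was chosen knowing earlier results of these samples, so its direction is no independent evidence. Of 45 tested matrix genes, 20 rose, 0 fell and 25 did not pass; this is 44.4%, against 4.02% of all tested genes called and 2.97% called as higher. The 4 with the smallest p were Postn (periostin) at 0.81 (SE 0.050, limma adjusted p = 0.000153), Col5a2 at 0.70, Cilp at 0.84 and Bgn (biglycan) at 0.39. Those 4 passed under all 15 alternatives. The count of 20 fell to 9 when knockout replicate 2 was left out, to 10 for knockout replicate 1, to 10 for wild type replicate 3 and to 13 for wild type replicate 2, and was 12 with no variance trend. Groups did not overlap in 36 of 45 matrix genes and in 3 of the 9 stress genes, against 28.7% of all tested genes. No test of the difference between the lists was made.

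Heart by heart, the lists also differed in overlap. Each gene was set against its wild-type mean, and the median over the list was taken in each heart. For the stress genes it was -0.046, -0.056 and 0.10 in wild-type hearts and 0.13, 0.071 and 0.085 in knockout hearts, so wild-type heart 3 lay among the knockout hearts. For the matrix genes it was 0.076, -0.057 and -0.017 against 0.28, 0.36 and 0.28, with no overlap. Knockout heart 1 was the highest heart for the stress genes and knockout heart 2 for the matrix genes.

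**Figure D3:**
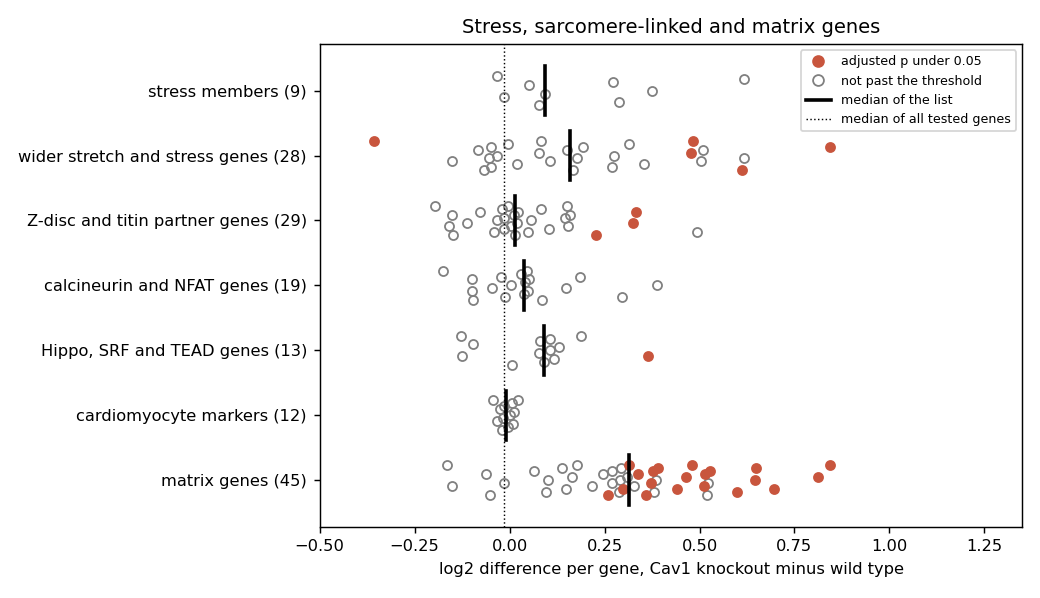
Each point is a gene at its brightest tested probe set, placed by its limma log2 difference, knockout minus wild type; filled red points had an adjusted p under 0.05, thick bars are list medians, the dotted line is the median of all tested genes, and the number tested is in brackets. The 9 stress members (median 0.092) include no filled point, while 20 of the 45 matrix genes (median 0.32) are filled.

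A wider list of genes known to respond to load or injury was mixed, with called members that belong to the natriuretic peptide system and the sarcomere. Of its 35 genes, 31 were on the array and 28 were tested: 4 rose, 1 fell and 23 did not pass, with a median of 0.16. The called share was 17.9%, against 4.02% of all tested genes. Npr3, the natriuretic peptide clearance receptor, read 246, 280 and 303 in the wild-type hearts against 452, 410 and 489 in the knockout hearts. It rose by 0.61 (SE 0.083, limma adjusted p = 0.00675), passed under all 15 alternatives, and a second probe set passed as well, at 0.52 (limma adjusted p = 0.0401), while the remaining one stood at 0.40 (limma adjusted p = 0.0769). Corin, the protease that cleaves the atrial natriuretic peptide precursor, read 2674, 2550 and 2430 against 2141, 2084 and 1898. Its log2 difference was -0.36 (SE 0.060, limma adjusted p = 0.0164), a fall, and its adjusted p was 0.0524 without knockout replicate 1, 0.0624 without knockout replicate 2 and 0.0551 without a variance trend. Nppa, the precursor itself, overlapped between groups at -0.084 (SE 0.056, limma adjusted p = 0.421).

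Among sarcomere genes of the wider list, Myh7, the slow myosin heavy chain of the fetal and stressed ventricle, read 614, 542 and 647 in the wild-type hearts against 1243, 926 and 1241 in the knockout hearts. The rise was 0.84 (SE 0.12, limma adjusted p = 0.00973), and the limma adjusted p was 0.0587 without knockout replicate 1. Knockout heart 3 was level with the highest heart here, unlike in Acta1. Myh6, the adult isoform, stood at -0.032 (limma adjusted p = 0.562) at its brightest probe set and at -0.45 (limma adjusted p = 0.136) at a weaker one. Ankrd23, a relative of Ankrd1 that also binds titin, read 1956, 1969 and 2465 against 3408, 3010 and 2673 and rose by 0.48 (SE 0.099, limma adjusted p = 0.0389). Mybpc2, the fast form of myosin-binding protein C, rose by 0.48 (SE 0.094, limma adjusted p = 0.0311). Both calls were lost without knockout replicate 1 (limma adjusted p = 0.146 for Ankrd23 and 0.131 for Mybpc2), knockout replicate 2 (0.129 and 0.0987), wild type replicate 1 (0.114 and 0.0791) or wild type replicate 2 (0.0722 and 0.06), and with no variance trend (0.0799 and 0.0502). With no filter the adjusted p of Ankrd23 was 0.0513. Ankrd2, of the same family as Ankrd1, lay below the filter.

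**Figure D4:**
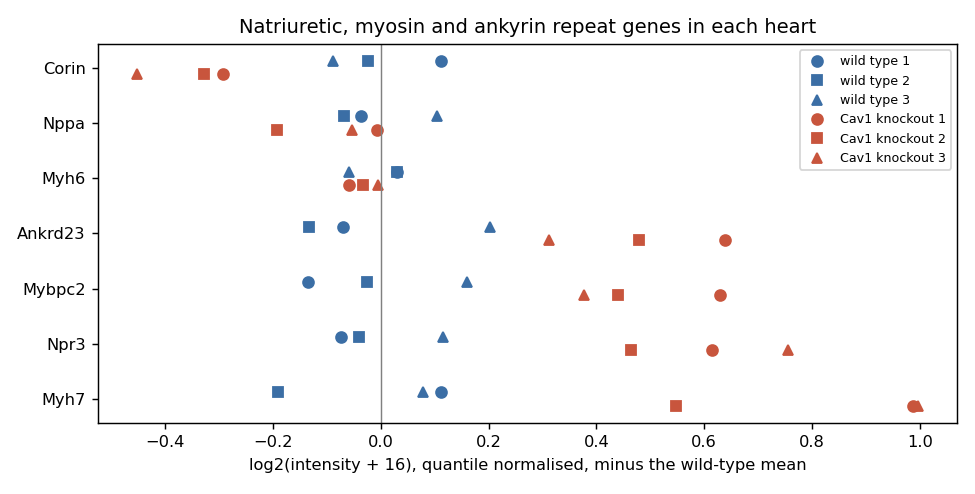
Each point is 1 heart, as log2(intensity + 16) after quantile normalisation minus the wild-type mean, for the called genes of the wider list and for Nppa and Myh6. Myh7, Npr3, Mybpc2 and Ankrd23 lie to the right and Corin to the left in all 3 knockout hearts with no overlap, and Nppa and Myh6 overlap.

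The partners of the members in the muscle cell were counted in 3 lists. Of 29 tested Z-disc and titin partner genes 3 rose, 0 fell and 26 did not pass, with a median of 0.015; 10.3% were called, against 4.02% of all tested genes. The 3 were Pdlim1 at 0.33 (limma adjusted p = 0.0159), Lims2 at 0.33 (0.0161) and Csrp1 at 0.23 (0.0441), LIM-domain genes that other cell types of the heart express too. All were lost without knockout replicate 1 (limma adjusted p = 0.0906, 0.0845 and 0.162) and without knockout replicate 2 (0.0771, 0.0796 and 0.147). Lims2 was also lost without wild type replicate 1 (limma adjusted p = 0.0517) and wild type replicate 3 (0.0671). Csrp1 was lost in each of the 6 leave-outs, at limma adjusted p of 0.0642 to 0.162. It was also lost with the upper 75% of probe sets, with no filter and with no variance trend, and so was kept in 6 of 15 alternatives. A weaker probe set of Csrp1 stood at 0.22 (limma adjusted p = 0.137). Among 19 tested calcineurin and NFAT genes, the pathway that Rcan1 regulates, limma called 0, with 3 at an unadjusted p under 0.05 and a median of 0.038. Of all 11486 tested genes, 4.02% were called and 2531 had an unadjusted p under 0.05 by limma. In the list of Hippo, SRF and TEAD genes, whose products bind CArG and TEAD motifs or control those that do, 1 of 13 rose. This is 7.69%, against 4.02% of all tested genes called. The gene was Wwtr1, the TEAD coactivator TAZ, at 0.36 (SE 0.042, limma adjusted p = 0.00327), called under all 15 alternatives, in a tissue whose cell types were not told apart. Log2 differences of 0.21 and 0.19 at its remaining probe sets missed the threshold (limma adjusted p = 0.111 and 0.0665).

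Marker lists for the muscle cells of the heart and for skeletal and atrial muscle gave no calls. Of all 11486 tested genes, 4.02% were called, 2531 had an unadjusted p under 0.05 by limma and 5263 stood above 0. The 12 cardiomyocyte markers, all tested, had 0 calls by limma, 0 at an unadjusted p under 0.05 and a median of -0.010, with summed intensities (quantile normalised, over the tested genes of a list) of 188930 to 191007 in wild-type and 187412 to 190523 in knockout hearts. These markers sit near the top of the scale: all 12 lay at or above percentile 99 in every heart, and 10 had equal normalised values in 2 or more hearts. Quantile normalisation gives each array the same value at the same rank, so differing readings can become equal. Tnni3 read 14065.4, 14334.5 and 14312.4 in wild-type hearts 1 to 3 as deposited and stood at 13.7866 in each after it. The sums of such top-ranked genes are thereby held nearly level across hearts, and a loss of range there was not tested. Neither the level sums nor the low spread therefore shows that these markers were unchanged. Of 14 skeletal muscle markers 10, Myod1, Myog and the skeletal myosins Myh1, Myh2 and Myh4 among them, lay below the filter, and of the other 4 Ckm, which is also on the cardiomyocyte list, made up nearly the whole sum. Without Ckm the sums of Tnni2, Mylpf and Atp2a1 ran from 201 to 213 in wild-type and from 188 to 204 in knockout hearts. The 8 tested atrial markers all stood below 0 (median -0.13, 0 called by limma and 0 at an unadjusted p under 0.05), with sums of 31493 to 37989 in wild-type and 29835 to 34580 in knockout hearts. Wild-type heart 2 had the lowest atrial sum and the lowest Nppb of the wild-type hearts, and wild-type heart 3 the highest of both, whereas the knockout hearts kept no such order.

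Endothelial markers summed to 6931 to 7237 in wild-type and 8194 to 9271 in knockout hearts (6 of 14 rose), and macrophage markers to 7335 to 8476 and 9451 to 9815 (6 of 14 rose). Each share is 42.9%, against 2.97% of all tested genes called as higher. The endothelial calls were Pecam1, Tek, Tie1, Erg, Cldn5 and Esam, and the macrophage calls Ctss, Ptprc, Laptm5, C1qa, Mrc1 and Mpeg1, named after their values were seen. Of the 14 endothelial markers 12 stood above 0, while Robo4 was at -0.25 (limma adjusted p = 0.12) and Kdr at -0.039 (limma adjusted p = 0.803). Of the 14 macrophage markers 13 stood above 0, while Fcgr1 was at -0.10 (limma adjusted p = 0.611). Fibroblast markers summed to 20929 to 22395 and 21654 to 25124, with 1 of 11 called as higher (9.09%, against 2.97% of all tested genes). This was Col1a1, which is also on the matrix list, as are Col1a2, Dcn and Lum. Smooth muscle and pericyte markers summed to 18748 to 19251 and 19277 to 19537, with Rgs5, Des and Acta2 the brightest genes in these sums. By gene their median was -0.0035, with 6 of 12 above 0. Limma called 0 of 12 and gave 2 at an unadjusted p under 0.05, Pdgfrb at 0.12 and Tagln at -0.14. Of all 11486 tested genes, 2531 had such a p. Adipocyte markers went the other way, at 3011 to 5019 and 2507 to 2695, with 1 of 7 called as lower. This is 14.3%, while 121 of all 11486 tested genes were called as lower. Which cells the signal of the stress genes came from was not measured, and the part of such shifts in the values above was not tested.

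**Figure D5:**
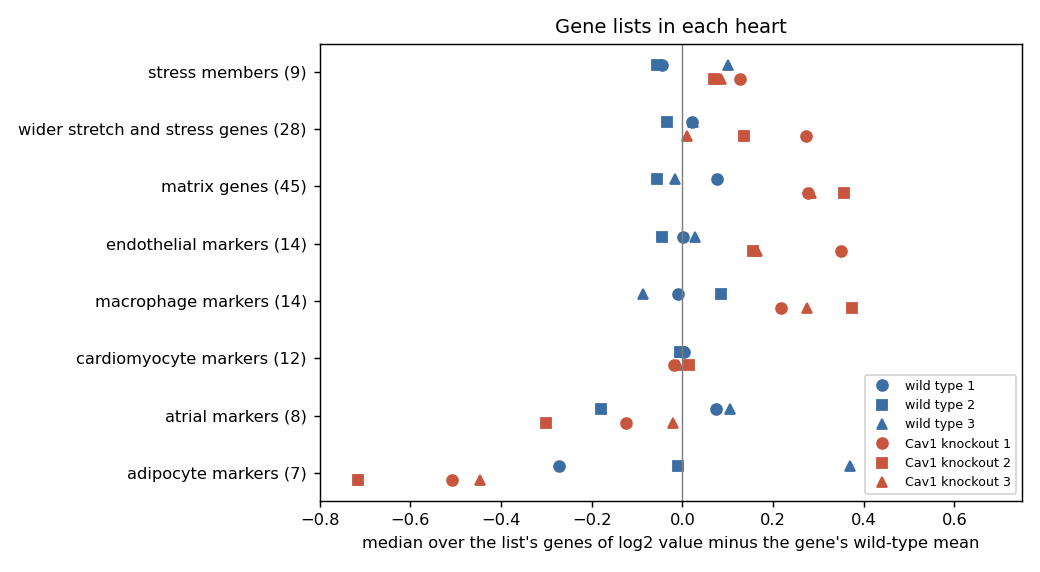
Each point is 1 heart, showing for each list the median over its tested genes (number in brackets) of the log2 value minus the gene's wild-type mean. Matrix, endothelial and macrophage lists separate the groups with knockout higher. The adipocyte list separates them with knockout lower (-0.27 to 0.37 in wild-type and -0.72 to -0.45 in knockout hearts). The stress members overlap at wild-type heart 3 (0.10), and the cardiomyocyte markers, whose spread quantile normalisation limits, stay close to 0.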

How the data were processed

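Total RNA of 6 heart samples was labelled with biotin and put on Affymetrix arrays, per the labels' protocols. Per the submitters' processing notes, GCOS 1.4 was used. The deposited table holds 1 linear intensity for each of 45101 probe sets and array; summarisation: not given in the sources used here. Dropped were the 64 control probe sets; the rest were quantile normalised and put on log2(intensity + 16). The upper 50% by mean, 22519 probe sets, were fitted with limma 3.58.1 in R 4.3.3 (lmFit, eBayes with trend, no covariate, Benjamini-Hochberg, threshold 0.05) and checked on simulated data. Of 45037 probe sets, 34945 had 1 symbol in the platform annotation, 932 several and 9160 none. Lists use the brightest tested probe set of a gene.

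Members and lists were chosen with earlier results of these data known. Named by rule were all member probe sets, called genes of the 4 related lists with Nppa, Myh6, Myh7 and Cav1, the 4 matrix genes of smallest p, and 3 nearest profiles for 3 members. Some other genes, mainly of the marker lists, were named outside this rule. Alternatives were the scaling, pseudocount, filter, variance trend, array weights, averaging the probe sets within a gene, and leaving out each array.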

Additional observations from a re-analysis of the deposited data

How the results depend on the processing

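The direction of the larger member differences held under every alternative run (2 other scalings, 2 other pseudocounts, 3 other filters, no variance trend, array weights and 6 left-out arrays): Acta1 ran from 0.43 to 0.87, the brighter Ankrd1 probe set from 0.21 to 0.35, Fhl2 from 0.078 to 0.11 and the brighter Rcan1 probe set from 0.18 to 0.40. The s_at probe set of Uck2 kept its direction too, from 0.31 to 0.50. Signs turned for values near 0: Nppb to 0.015 with median centring and, without wild type replicate 3, knockout replicate 2 or knockout replicate 3, to 0.11, 0.0053 and 0.037 (range over left-out arrays -0.14 to 0.11); Xirp1 to 0.022 as deposited and 0.041 with median centring; the x_at probe set of Uck2 to 0.11 without wild type replicate 1 (range over left-out arrays -0.21 to 0.11) and 0.031 with array weights. With the upper 25% of probe sets, 2 member probe sets and 1 member gene were called (Ankrd1); over left-out arrays either count ran from 0 to 2, and the gene count did not change on averaging the probe sets within a gene. Calls over all probe sets were 411 without a trend, 1171 with array weights and 189 to 749 over left-out arrays, against 714. Matrix calls were 12 without a trend and 9 to 17 over left-out arrays, and the matrix median was 0.37 as deposited and 0.39 with median centring. Calls in the wider stress list were 2 without a trend and 1 to 7 over left-out arrays. The cause of these shifts was not tested. No paired analysis was possible because the knockout titles carry no replicate number that matches a wild-type one. Dim probe sets of Fhl1 and Uck2 could be fitted only with a wider filter, where none passed.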
